A study of Mus musculus with 2 samples.

Results

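The Ikaros family genes Ikzf1 (Ikaros), Ikzf2 (Helios) and Ikzf3 (Aiolos) and the chromatin organiser gene Satb1 were followed through T lineage entry in culture. The 4 genes were chosen by name, out of 28692 genes counted. No measured value was a criterion of that choice, but earlier results of these data were known when it was made. The cells were wild type hematopoietic stem and progenitor cells (HSPCs, Sca-1+ cKit+) sorted from TER-119-depleted fetal liver of E13.5 CD1 mouse embryos. They were grown at 1000 cells per well on plates coated with the Notch ligand DL4 at 10 μg/mL and the adhesion protein VCAM-1 at 2.32 μg/mL. Both libraries, named FL001 and FL002 in the labels, carry this same condition. The study describes cells taken straight after sorting or after differing days of culture, pooled for its analysis. Both labels name the DL4 and VCAM-1 coating, but the day of each library, and whether the cultures were separate, is not stated. The libraries may thus differ in day, and the spread between them may be technical.

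Ikaros family proteins bind DNA through zinc fingers near the amino end and bind each other through a separate pair of fingers near the carboxyl end. Ikaros recruits chromatin remodelling and corepressor complexes, restrains Notch target genes in developing T cells and is needed for lymphoid development. Helios is best known in early progenitors and in regulatory T cells, Aiolos in later lymphocytes, and Satb1 folds chromatin and is needed for normal T cell development in the thymus.

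The stretch of coding sequence that Ikzf1 and Ikzf2 share most closely is shown here. These 2 paralogs made up nearly all of the counts of Ikzf1, Ikzf2 and Ikzf3, and their counts can only be separated where their sequences differ. It is the most similar in-frame window of 90 bases, and it overlaps 1 of the zinc fingers nearer the amino end of the proteins. Sequences were read from the GENCODE M21 transcripts, and capitals mark bases that are the same in both genes.

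Ikzf1: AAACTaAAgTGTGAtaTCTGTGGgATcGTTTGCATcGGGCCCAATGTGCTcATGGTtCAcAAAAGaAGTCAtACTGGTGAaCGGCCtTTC

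Ikzf2: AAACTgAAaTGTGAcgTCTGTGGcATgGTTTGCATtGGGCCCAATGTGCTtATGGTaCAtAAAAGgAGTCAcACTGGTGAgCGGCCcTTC

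Of the 90 positions, 76 (84.4%) were the same in both genes. The window covered coding bases 406 to 495 of 1608 in Ikzf1 and 349 to 438 of 1599 in Ikzf2. No run of 25 bases was shared between any of the 4 genes in the last 500 bases of their transcripts. Ikzf2 and the relative Ikzf4, described further on, shared 3 such runs there. Ikzf1 and Ikzf3 lie on chromosome 11, Ikzf2 on chromosome 1 and Satb1 on chromosome 17. Ikzf1 overlaps the antisense gene Gm12000 and Ikzf2 the antisense gene Gm29114, both of which were counted in the same table. How the counting treated strand was not given in the sources used here, so reads of such pairs may be divided between them.

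The libraries held 16320118 (FL001) and 22651783 (FL002) unique molecular identifiers (UMIs), each a count of 1 captured molecule. A barcode was kept as a cell from 1500 UMIs and 500 genes upwards, provided that no more than 10% of its UMIs were mitochondrial, which left 1788 and 4100 cells with medians of 7722 and 4752.5 UMIs. Of these barcodes, 10 were found in both libraries. The level of a gene in a gate is its summed UMIs divided by the summed UMIs of all genes there and multiplied by 1000000 (CPM), with exact 95% Poisson intervals. Such intervals cover counting error only.

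Cells were placed in 5 gates by raw UMIs of lineage genes, none of them a gene under study. The progenitor gate took cells with at least 2 UMIs of Lmo2 and Mef2c, which mark uncommitted progenitors, and at most 1 of the T cell receptor complex gene Cd3g (428 cells in FL001, 724 in FL002). The Cd3g-low gate took cells with at most 2 Cd3g UMIs and at most 1 of Lmo2 and Mef2c (381 and 1134). The Cd3g gate took cells with at least 3 Cd3g UMIs and none of Il2ra (327 and 873). The Il2ra gate took cells with at least 1 UMI of Il2ra, the CD25 gene of the double-negative 2 stage (738 and 1668). The commitment gate took cells with at least 2 UMIs of Ptcra, Lef1 and Bcl11b, genes of T lineage commitment (451 and 501). Gates can share cells: 61.0% and 58.1% of commitment gate cells were also in the Il2ra gate, and 51.4% and 22.7% of Cd3g gate cells were also in the commitment gate. The summed level of 11 T lineage markers was 73.9 and 101 CPM in the progenitor gate and 5996 and 5752 CPM in the commitment gate. Myeloid markers were highest in the progenitor and Cd3g-low gates. The 9 genes of this list summed to 2466 and 1628 CPM in the progenitor gate and 3704 and 1114 CPM in the Cd3g-low gate. The sums were 87.4 and 136 CPM in the Cd3g gate and 267 and 138 CPM in the Il2ra gate. In the commitment gate they were 31.1 and 84.5 CPM.

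Ikzf1 was detected in every gate, within a narrower range than Satb1. Its level in FL001 was 102 CPM (92.0 to 113) in the progenitor gate, 77.8 (68.1 to 88.5) in the Cd3g-low gate, 86.7 in the Cd3g gate, 81.8 in the Il2ra gate and 94.8 (85.0 to 106) in the commitment gate. In FL002 the levels in the same order were 95.6 (86.5 to 105), 89.8, 88.6, 89.7 and 105 CPM (92.5 to 119). The progenitor gate was highest in FL001 and the commitment gate in FL002, and the intervals of these 2 gates overlapped in each library. In FL001 the Cd3g-low and Il2ra intervals lay below that of the progenitor gate, while in FL002 the intervals of all 5 gates overlapped.

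Ikzf2 was highest in the commitment gate of both libraries. In FL001 its level was 49.7 CPM (42.7 to 57.4) in the progenitor gate, 52.6 in the Cd3g-low gate, 73.6 in the Cd3g gate, 56.4 in the Il2ra gate and 86.2 (76.8 to 96.4) in the commitment gate. In FL002 the order was the same, with 56.5 (49.6 to 64.1), 57.1, 68.2, 59.6 and 89.9 CPM (78.3 to 103). The commitment and progenitor intervals did not overlap in either library, while the intervals of the progenitor, Cd3g-low and Il2ra gates overlapped within each library. With each cell counted in 1 gate only, commitment cells first, the Ikzf2 level of the Cd3g gate came to 58.1 and 57.6 CPM, near that of the Cd3g-low gate (56.1 and 60.0 CPM).

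Satb1 was higher from the Cd3g gate onwards and highest in the commitment gate. Its level in FL001 was 55.9 CPM (48.5 to 64.0) in the progenitor gate, 37.7 (31.1 to 45.4) in the Cd3g-low gate, 79.2 (69.2 to 90.3) in the Cd3g gate, 85.3 (78.3 to 92.7) in the Il2ra gate and 104 (93.8 to 115) in the commitment gate. In FL002 it was 53.9, 55.3 (49.4 to 61.6), 80.2 (72.0 to 89.0), 91.2 (84.9 to 97.9) and 101 CPM (88.9 to 115). The Satb1 intervals of the Cd3g and Il2ra gates overlapped in both libraries. The dip in the Cd3g-low gate was seen in FL001 and not in FL002. That gate of FL001 also held the most myeloid marker RNA. Without cells holding many UMIs of myeloid, megakaryocyte or mast and basophil genes, its Satb1 level was 37.6 CPM.

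Ikzf3 was close to absent. Over all kept cells it had 5 UMIs in 4 cells of FL001 and 4 UMIs in 4 cells of FL002, or 0.331 and 0.188 CPM. No UMI fell in the progenitor gate of either library. If a count of 0 is taken to allow for up to 3, the level could be up to 0.810 and 0.706 CPM. The share of cells with a UMI could then be up to 0.701% and 0.414%. Of the Ikzf3 UMIs, 4 of 5 in FL001 and 2 of 4 in FL002 were in cells with at least 3 UMIs of Id2, an inhibitor of E proteins that is high in innate lymphoid cells; these were 217 and 239 cells. The counts are too few to compare gates.

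**Figure D1:**
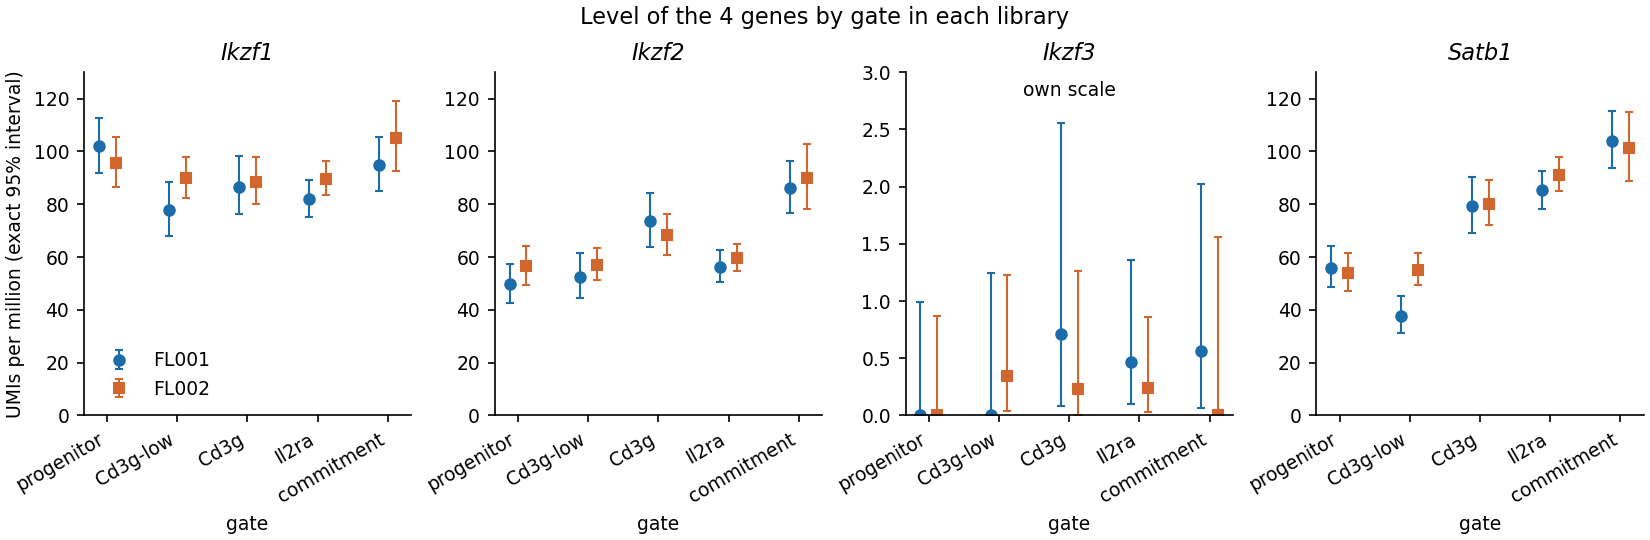
Level of Ikzf1, Ikzf2, Ikzf3 and Satb1 in CPM (y axis, Ikzf3 on its own scale) in the 5 gates (x axis), with circles for FL001, squares for FL002 and bars for exact 95% Poisson intervals. Ikzf1 stayed between 77.8 and 105 CPM, Ikzf2 and Satb1 were highest in the commitment gate of both libraries, and Ikzf3 was below 1 CPM in every gate.

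Barcodes with at most 100 UMIs, which hold free RNA rather than cells, carried Ikzf1 at 82.7 and 109 CPM and Satb1 at 58.4 and 84.5 CPM, against 87.8 and 90.1 CPM and 69.9 and 73.3 CPM over all cells. Ikzf2 there was 36.4 CPM (25.04 to 51.1) in FL001, below its 58.0 CPM over all cells, and 65.8 CPM (51.7 to 82.6) in FL002, where all cells had 61.0 CPM. Ikzf3 had 0 UMIs there. No cell type that should lack these genes was fixed for comparison. In the small group of 16 and 13 cells with at least 5 UMIs of megakaryocyte genes, none had an Ikzf2 or Satb1 UMI at the common depth described next, which allows shares of up to 18.8% and 23.1%, and Ikzf1 was seen in 12.5% and 0% of them. At full depth Ikzf2 was found in 3 and Satb1 in 2 of the 16 cells of FL001 (21.3 and 28.5 CPM), and neither in FL002. The share that free RNA had in the gate levels was not tested.

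Because depth differed between gates, every cell was also thinned to 1500 UMIs. At that depth the share of cells with an Ikzf1 UMI was 12.1% in the progenitor gate and 11.1% in the commitment gate of FL001, and 14.2% and 15.4% in FL002. The share with Ikzf2 went from 8.64% (exact binomial 95% interval 6.16 to 11.7) in the progenitor gate to 14.2% (11.1 to 17.8) in the commitment gate in FL001, and from 8.29% (6.38 to 10.5) to 10.6% (8.03 to 13.6) in FL002. The share with Satb1 went from 6.78% (4.58 to 9.59) to 14.9% (11.7 to 18.5) and from 7.60% (5.77 to 9.77) to 13.6% (10.7 to 16.9). The Satb1 intervals did not overlap in either library, and the Ikzf2 intervals overlapped in both. At full depth the Ikzf2 shares were 31.1% and 37.3% in FL001 and 25.4% and 29.3% in FL002, and the Satb1 shares were 31.3% and 49.2% in FL001 and 23.8% and 36.3% in FL002.

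Differences between gates were tested on 10 sums of UMIs, 2 libraries by 5 gates with each cell counted once, by edgeR's quasi-likelihood test with library as a block. Adjusted p-values are Benjamini-Hochberg values over the 10587 genes tested. Ikzf1, Ikzf2 and Satb1 were among them, and Ikzf3 was too low to be tested. Between the commitment and progenitor gates, Ikzf2 and Satb1 rose and Ikzf1 did not pass the test, so that 2 of 3 were called beside 38.4% of all genes tested (19.6% higher and 18.9% lower in the commitment gate).

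Ikzf2 went from 50.3 to 86.2 CPM in FL001 and from 57.3 to 89.9 CPM in FL002, higher in the commitment gate of 2 of 2 libraries. This was a log2 change of 0.75 (SE 0.12, edgeR adjusted p = 6.92e-06). The Ikzf2 rise among cells of like depth or cell cycle state differed between the libraries. Below the gate median of UMIs, the progenitor and commitment gates had 71.1 and 169 CPM in FL001 and 79.2 and 81.8 CPM in FL002. At or above it they had 39.1 and 53.2 CPM and 44.5 and 93.6 CPM. Non-cycling cells, defined further on, had 60.9 and 121 CPM and 77.6 and 89.8 CPM. Cycling cells had 45.3 and 60.3 CPM and 46.3 and 90.2 CPM. Intervals overlapped in deeper and cycling cells of FL001 and in shallower and non-cycling cells of FL002. Gates could share cells here. Satb1 went from 56.5 to 104 CPM and from 52.8 to 101 CPM, also higher in both libraries, a log2 change of 0.96 (SE 0.12, edgeR adjusted p = 1.63e-07). Ikzf1 went from 103 to 94.8 CPM and from 94.1 to 105 CPM, so the libraries differed in direction. Its log2 change was 0.05 (95% interval -0.15 to 0.26, edgeR adjusted p = 0.713). Its sign turned when cells of other lineages were left out or gates were set at the common depth. Gates set at that depth held a different set of cells, summed at full depth, so they do not compare the same cells at equal depth. The commitment sums went from 451 to 157 cells in FL001 and from 501 to 197 in FL002. The Cd3g-low sums went from 301 to 842 and from 848 to 1935.

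Cells with many UMIs of myeloid, megakaryocyte or mast and basophil genes made up 37.9% and 21.1% of the progenitor gate and 4.66% and 2.20% of the commitment gate. Without them the log2 change of Ikzf2 was 0.45 (SE 0.12, edgeR adjusted p = 0.00443), that of Satb1 was 0.98 and that of Ikzf1 was -0.02. The Ikzf2 level of the progenitor gate was then 66.3 and 62.9 CPM. The cells left out are called cells of other lineages here by counts alone. Of those with at least 5 UMIs of mast and basophil genes, 56.3% and 37.1% were in the Il2ra gate. Cpa3 alone made up 115 of 121 CPM and 107 of 119 CPM of the mast and basophil markers in that gate. Some of the cells left out may thus be T precursors.

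Between neighbouring gates, Ikzf2 passed the test at the last step. Between the commitment and Il2ra gates Ikzf2 rose by 0.83 on the log2 scale (SE 0.11, edgeR adjusted p = 3.25e-06), from 42.0 to 86.2 CPM and from 55.8 to 89.9 CPM, and Satb1 rose by 0.34 (SE 0.11, edgeR adjusted p = 0.0417). In this comparison 2 of 3 tested genes were called beside 10% of all genes (5.49% higher and 4.52% lower in the commitment gate). Ikzf1 was 0.29 higher (95% interval 0.09 to 0.50, edgeR adjusted p = 0.0627), which did not pass. Without cells of other lineages Ikzf1 was called (0.30, edgeR adjusted p = 0.0471). The Satb1 call was lost in 5 of the alternatives tried: adjusted p = 0.401 with no replicate block, 0.430 with DESeq2, 0.0722 without the cells of highest doublet score and 0.0558 without other lineages. With gates set on counts thinned to 1500 UMIs, which changed their cells as given above, the Satb1 difference was -0.03 (adjusted p = 0.962). It also rested more on FL001: without FL001 it was 0.20 and without FL002 0.50, each a value with no test.

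Satb1 also rose at an earlier step. Between the Cd3g and Cd3g-low gates Satb1 rose by 0.67 on the log2 scale (SE 0.14, edgeR adjusted p = 0.00144), from 37.4 to 60.8 CPM in FL001 and from 50.4 to 76.6 CPM in FL002. It was the only 1 of the 3 called, beside 8.17% of all genes (4.34% higher and 3.83% lower in the Cd3g gate). With no replicate block its adjusted p was 0.0806 at a log2 change of 0.67, and without cells of other lineages the change was 0.65 (adjusted p = 0.00200). Ikzf2 differed by 0.00 (95% interval -0.27 to 0.28) and Ikzf1 by -0.03 (95% interval -0.26 to 0.20).

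At the other 2 steps edgeR called none of the 3 genes, and none had an unadjusted p under 0.05 by edgeR or by DESeq2 on the same sums. In alternative edgeR fits the unadjusted p of Satb1 at the first of these steps was 0.0404 with no filter, 0.0458 without the highest doublet scores and 0.0231 with at least 3000 UMIs, none of them called after adjustment. Between the Cd3g-low and progenitor gates, where 12.2% of genes were called (6.75% higher and 5.44% lower in the Cd3g-low gate), Satb1 differed by -0.27 (95% interval -0.55 to 0.00), Ikzf1 by -0.17 (-0.39 to 0.04) and Ikzf2 by 0.12 (-0.14 to 0.37). With gates set at the common depth Ikzf1 was lower by -0.42 at that step (edgeR adjusted p = 0.0277). Between the Il2ra and Cd3g gates, where 0.17% of genes were called (0.085% in each direction), the differences were 0.22 for Satb1 (-0.03 to 0.47), -0.21 for Ikzf2 (-0.47 to 0.05) and -0.03 for Ikzf1 (-0.25 to 0.19).

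**Figure D2:**
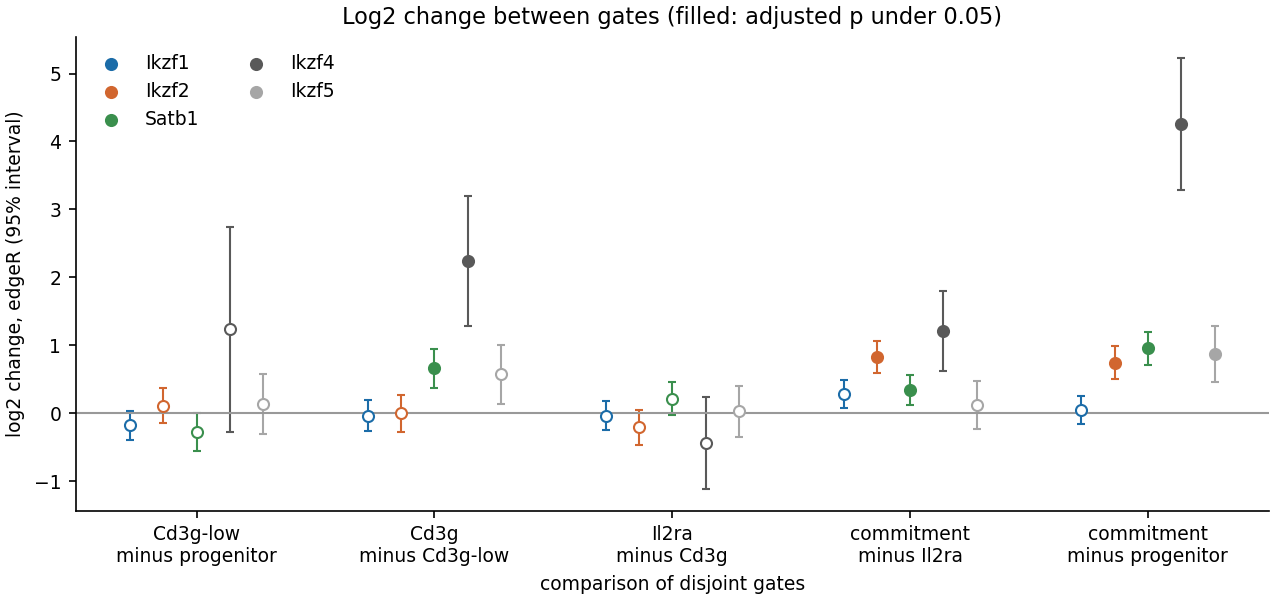
Log2 change (y axis, with 95% intervals from edgeR) of Ikzf1, Ikzf2, Satb1, Ikzf4 and Ikzf5 in 5 comparisons of gates that share no cell (x axis), with filled points for adjusted p under 0.05. Satb1 is filled at the Cd3g and commitment steps, Ikzf2 at the commitment step, and Ikzf1 in none of the comparisons, at 0.05 between the commitment and progenitor gates.

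The paralog mix held more Ikzf2 in the commitment gate. Ikzf2 made up 32.7% (28.9 to 36.8) of Ikaros family UMIs, those of Ikzf1, Ikzf2 and Ikzf3, in the progenitor gate of FL001, 40.3% in the Cd3g-low gate, 45.7% in the Cd3g gate, 40.6% in the Il2ra gate and 47.5% (43.6 to 51.4) in the commitment gate. In FL002 the shares were 37.2% (33.4 to 41), 38.8%, 43.4%, 39.9% and 46.1% (41.5 to 50.8). The commitment gate had the largest Ikzf2 share and the progenitor gate the smallest in both libraries. The difference was 11.8 ± 4.08 percentage points (SD, n = 2 libraries). Without cells of the other lineages it was 8.19 ± 0.548 percentage points. The progenitor and commitment shares were then 39.6% (34.3 to 45.1) and 47.4% (43.4 to 51.4) in FL001. In FL002 they were 37.7% (33.5 to 42.1) and 46.3% (41.5 to 51.1), and the intervals overlapped in both libraries. UMI counts do not grow with transcript length, but genes can differ in how well they are captured, so the mix is read between gates and not as a ratio of transcripts. The relatives Ikzf4 (79 and 116 UMIs over all cells) and Ikzf5 (289 and 497 UMIs) are not part of this mix.

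The lowest Ikzf2 share was found inside the progenitor gate. Cells of that gate with at least 2 UMIs of the stem cell factor genes Meis1, Hlf and Mecom are called stem-like here (122 and 117 cells). Those with at least 2 UMIs of the B lineage genes Ighm, Ebf1 and Cd79b are called lymphoid-primed (140 and 156 cells), and 34 and 19 cells met both. These are ranges of counts, not cell types found by clustering. Ikzf2 was 43.9% (36.2 to 51.9) and 50.9% (41 to 60.8) of family UMIs in stem-like cells and 16.8% (12.2 to 22.3) and 15.5% (10.2 to 22.2) in lymphoid-primed cells. The stem-like share was near that of the commitment gate, and the lymphoid-primed share was below that of every gate in both libraries.

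**Figure D3:**
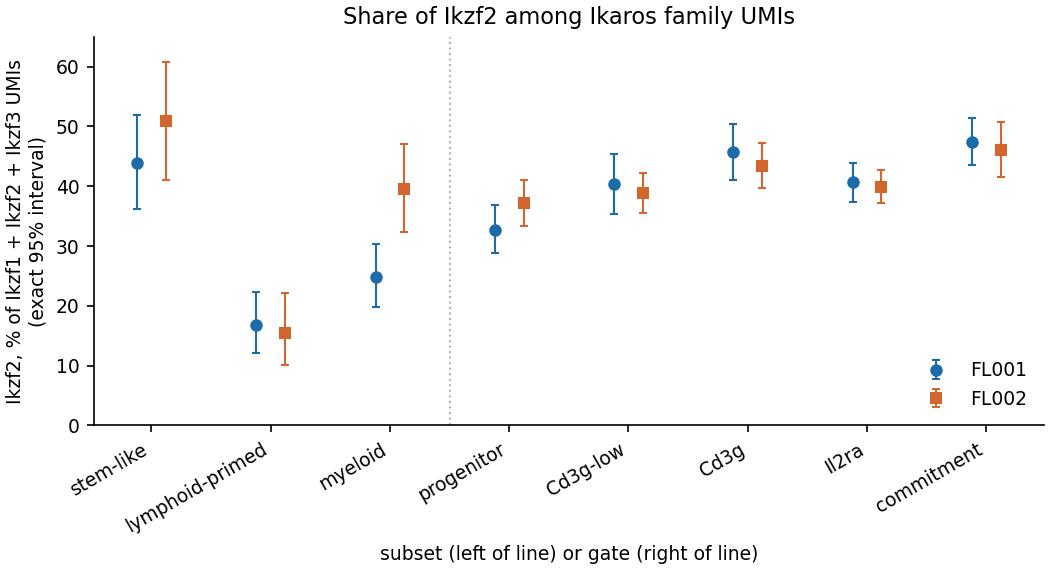
Ikzf2 as a percentage of Ikzf1, Ikzf2 and Ikzf3 UMIs (y axis) in 3 subsets, left of the dotted line, and in the 5 gates, right of it, with circles for FL001, squares for FL002 and bars for exact 95% binomial intervals. The share runs from 15.5% in lymphoid-primed cells to 50.9% in stem-like cells and is larger in the commitment than in the progenitor gate of both libraries.

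All 3 detected genes differed in level between these subsets. With the cells that met both definitions left out, Ikzf2 was at 86.9 CPM in stem-like and 20.4 CPM in lymphoid-primed cells of FL001, a ratio of 4.25 (exact 95% interval 2.55 to 7.31), and at 86.1 and 18.9 CPM in FL002, a ratio of 4.56 (2.57 to 8.46). Ikzf1 was lower in stem-like cells, at 76.0 against 135 CPM and 73.3 against 132 CPM, with ratios of 0.564 (0.399 to 0.785) and 0.554 (0.377 to 0.799). Satb1 was lower too, at 37.2 against 91.1 CPM and 40.3 against 90.1 CPM, with ratios of 0.409 (0.250 to 0.644) and 0.448 (0.266 to 0.724). All 6 intervals excluded 1 and the libraries gave the same direction for each gene. Lymphoid-primed cells were deeper, with medians of 9433 and 6281 UMIs against 6667 and 5377, and the part of depth in these ratios was not tested.

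Myeloid cells, with at least 10 UMIs of 7 granulocyte and monocyte genes, carried Ikzf2 at 33.6 CPM (26.1 to 42.7) in FL001 and 47.8 CPM (37.4 to 60.2) in FL002. Ikzf1 in these 190 and 194 cells was 102 CPM (88.4 to 117) and 73.0 CPM (60.0 to 88.0), intervals that did not overlap between the libraries. Satb1 was 59.8 and 53.1 CPM there, close to its level in the whole progenitor gate. Cells with at least 3 UMIs of Id2 held Satb1 at 87.5 and 92.3 CPM and Ikzf2 at 51.8 and 59.4 CPM. Cells with at least 3 UMIs of Gzma and at most 2 of Cd3g held Satb1 at 42.1 and 56.6 CPM.

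Among Il2ra gate cells outside the commitment gate, those with a UMI of Trdc, the constant gene of the T cell receptor delta chain, had a higher Satb1 level. It was 87.0 against 64.8 CPM in FL001, a ratio of 1.34 (1.07 to 1.69), and 112 against 75.7 CPM in FL002, a ratio of 1.48 (1.26 to 1.73). Cells with Trdc were less often in the Cd3g-low gate, at 6.09% and 11.8% against 22.2% and 23.9%. They were also shallower, with medians of 7685 and 4158 UMIs against 9149 and 4852, in a gate whose cells below the median depth had Satb1 at 117 and 119 CPM and the rest at 71.3 and 78.2 CPM. The part of either in the ratios was not tested. Ikzf1 and Ikzf2 showed no such difference, with ratios between 0.948 and 1.06 and all 4 intervals spanning 1. Inside the commitment gate, cells with and without an Il2ra UMI could not be told apart for any of the 3 genes: the 6 ratios lay between 0.779 and 1.11 and each interval included 1.

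**Figure D4:**
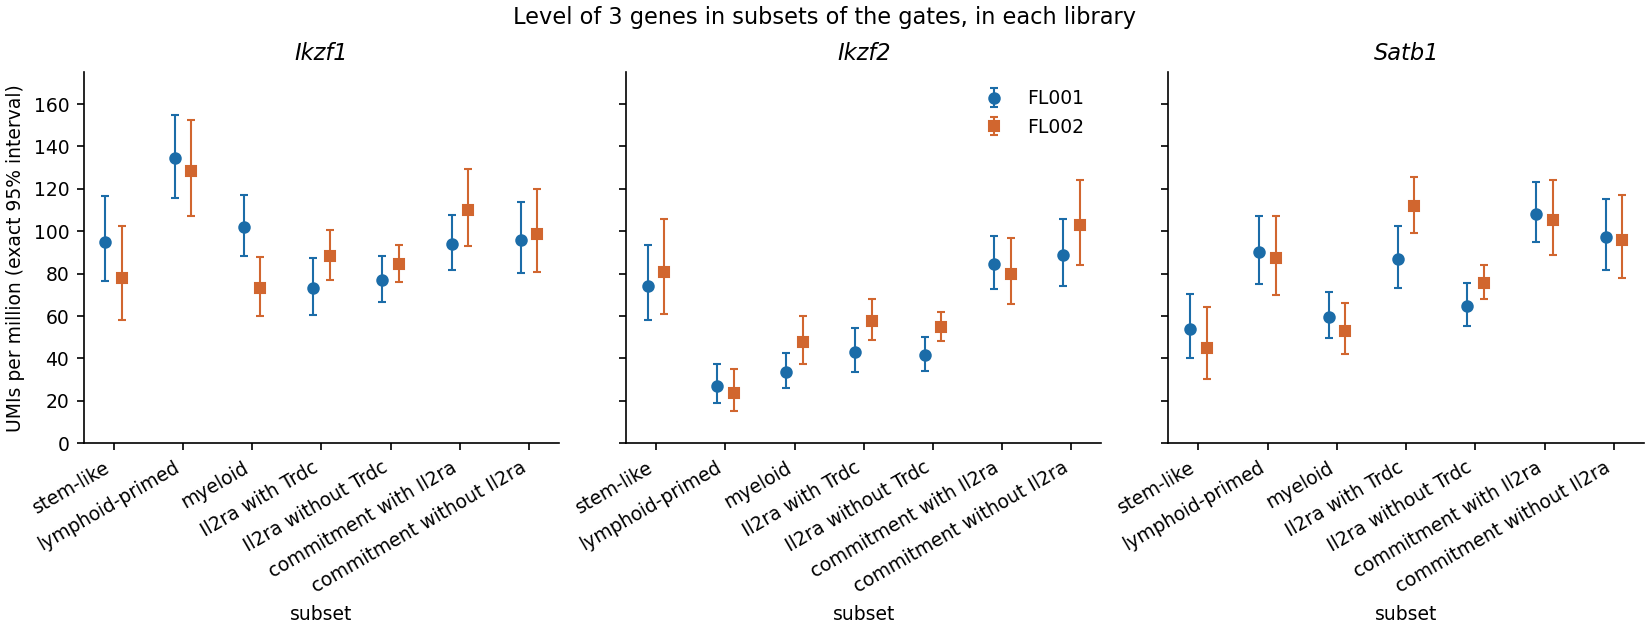
Level of Ikzf1, Ikzf2 and Satb1 in CPM (y axis) in 7 subsets (x axis), with circles for FL001, squares for FL002 and bars for exact 95% Poisson intervals. Lymphoid-primed cells had the highest Ikzf1 (134 and 128 CPM) and the lowest Ikzf2 (27.2 and 23.5 CPM) of the subsets shown, cells that also met the stem-like definition included.

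Ikzf2 also varied with the cell cycle. Cells with at least 3 UMIs of Mki67, Top2a, Cdk1 and Ccnb1 were counted as cycling. In FL001 Ikzf2 was higher in non-cycling cells of every gate, with ratios from 1.35 (0.976 to 1.84) in the progenitor gate to 2.12 (1.71 to 2.62) in the Il2ra gate, and in the commitment gate it was 121 against 60.3 CPM. In FL002 the ratio was 1.67 (1.29 to 2.18) in the progenitor gate and 1.56 (1.23 to 1.98) in the Cd3g gate. It was 1.06, 1.10 and 0.996 in the Cd3g-low, Il2ra and commitment gates, with intervals that included 1. The split thus held in both libraries only in the Cd3g gate, where both intervals excluded 1.

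Satb1 in the Il2ra gate was higher in non-cycling cells of both libraries, at 111 against 69.4 CPM (ratio 1.60, 1.35 to 1.90) and 103 against 78.9 CPM (ratio 1.31, 1.13 to 1.51). In the progenitor gate the Satb1 ratio lay below 1, at 0.718 and 0.756, with intervals just reaching 1. Of 10 intervals for Ikzf1, 9 included 1, the exception being the Il2ra gate of FL002 at 1.18 (1.02 to 1.37).

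Depth moved with the cell cycle. Cycling cells of the commitment gate had a median of 10072 UMIs in FL001 and 5815.5 in FL002, against 4996 and 3461 in non-cycling cells. Split at the gate median of UMIs, the shallower commitment cells of FL001 had Ikzf2 at 169 CPM and the deeper ones at 53.2 CPM. In FL002 the values were 81.8 and 93.6 CPM. In every other gate of both libraries the shallower cells had the higher Ikzf2 level. In the Il2ra gate, for example, it was 102 against 36.3 CPM in FL001 and 71.9 against 53.9 CPM in FL002. Cell cycle and depth were linked but not the same. In the commitment gate 17.3% of shallower and 67.7% of deeper cells of FL001 were cycling, and 16.4% and 54.6% in FL002. Cells were not split by both, so the part of each was not tested.

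**Figure D5:**
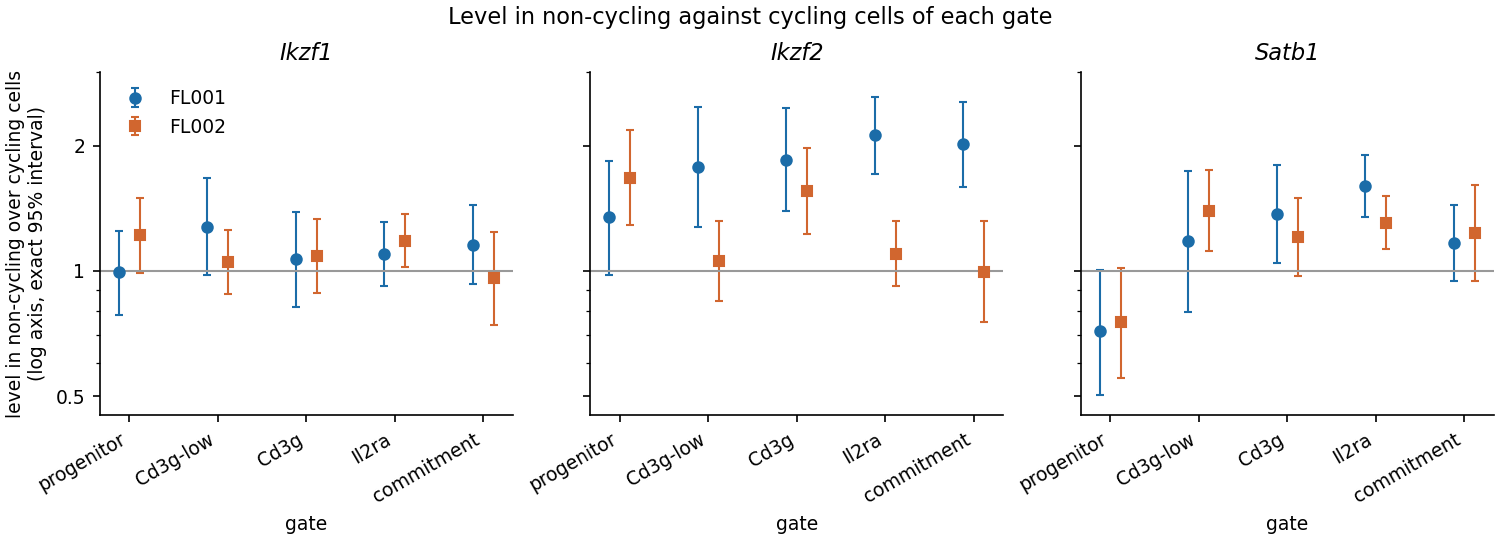
Ratio of the level in non-cycling to that in cycling cells (y axis, log scale) of each gate (x axis) for Ikzf1, Ikzf2 and Satb1, with circles for FL001, squares for FL002 and bars for exact 95% intervals. Ikzf2 reaches 2.12 in the Il2ra gate of FL001 but 1.10 in the same gate of FL002, and Ikzf1 stays near 1.

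Ordered by Cd3g UMIs instead of gates, Ikzf2 was highest at middle counts in FL001. Its level there was 54.6 CPM at 0 Cd3g UMIs, 38.4 at 1 to 2, 70.9 at 3 to 5, 136 (112 to 163) at 6 to 10, 82.7 at 11 to 20, 47.9 at 21 to 40 and 39.3 (31.8 to 48.0) at 41 and over. In FL002 the peak was flat, with 70.3, 67.0 and 70.4 CPM between 3 and 20 UMIs, 56.8 at 21 to 40 and 36.9 (19.6 to 63.1) in the 40 cells at 41 and over. In both libraries Ikzf2 was lower at the highest Cd3g counts than at 6 to 20, though the intervals of FL002 touched (57.1 to 78.2 at 6 to 10), and those cells were also the deepest, with medians of 11191 and 8664 UMIs. Satb1 levelled off instead: from 11 Cd3g UMIs upwards it stayed between 86.4 and 98.1 CPM in FL001 and between 85.1 and 91.2 CPM in FL002.

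Both Satb1 and Ikzf2 were higher in cells with commitment gene UMIs. Satb1 was at 88.6 and 107 CPM in cells with 1 UMI of Ptcra, Lef1 and Bcl11b, against 56.5 and 65.2 CPM in cells with none. It was 117 and 107 CPM at 2 to 3 UMIs, 98.0 and 94.5 CPM at 4 to 7 and 97.4 and 84.5 CPM at 8 and over, and the intervals of these bins overlapped that of the bin with 1 UMI in each library. Ikzf2 was at 47.5 and 56.4 CPM with none, 67.7 and 64.8 CPM with 1, 78.0 and 78.1 CPM with 2 to 3, and 94.5 (79.1 to 112) and 114 CPM (90.7 to 142) with 4 to 7. At 8 and over it was 84.1 (66.9 to 104) and 89.8 CPM (52.3 to 144), lower than at 4 to 7 with overlapping intervals. Ikzf1 was at 86.9 and 88.7 CPM with none, 72.7 and 84.4 CPM with 1 and 93.2 and 114 CPM with 2 to 3. It was at 100.1 and 87.6 CPM with 4 to 7 and 89.2 and 100 CPM with 8 and over. Only the bin with 2 to 3 in FL002 (97.7 to 133) had an interval apart from that of the bin with none (84.3 to 93.3).

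Within single cells, the share with an Ikzf2 UMI was compared between cells with and without an Ikzf1 UMI. At 1500 UMIs, 5.77% (1.21 to 15.9) of progenitor gate cells with an Ikzf1 UMI also had an Ikzf2 UMI in FL001, against 9.04% (6.34 to 12.4) of those without. In FL002 the shares were 5.83% (2.17 to 12.2) and 8.70% (6.60 to 11.2). In the commitment gate they were 6% against 15.2% in FL001 and 10.4% against 10.6% in FL002. Intervals overlapped in each of these 4 comparisons, so neither an excess nor a lack of joint detection could be shown at this depth. For Satb1 with either of the other genes, intervals also overlapped in both gates of both libraries. At full depth all 3 of Ikzf1, Ikzf2 and Satb1 were found in 10.6% and 3.79% of commitment gate cells, and none of them in 18.4% and 29.1%.

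Of the other relatives, Ikzf4 (Eos) was nearly absent from the progenitor gate. Its level was 0.540 and 1.18 CPM in the progenitor gate, 1.35 and 2.38 in the Cd3g-low gate, 9.20 and 10.9 in the Cd3g gate, 7.76 and 6.44 in the Il2ra gate and 12.3 and 13.51 CPM in the commitment gate. The log2 change from progenitor to commitment was 4.26 (SE 0.47, edgeR adjusted p = 1.49e-08), and that from the Cd3g-low to the Cd3g gate 2.24 (SE 0.47, edgeR adjusted p = 0.00139). The second became 0.0560 by DESeq2, and a further rise from Il2ra to commitment (1.21, edgeR adjusted p = 0.00421) was 0.111 with no replicate block and 0.378 by DESeq2. In gates that share no cell the progenitor sums held 1 and 4 UMIs, so the size of the first change is loosely set: it was 3.75 without FL001 and 5.43 without FL002. Even in the commitment gate Ikzf4 was well below Ikzf2 in counts, with 44 and 32 UMIs against 308 and 213.

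Ikzf5 (Pegasus) rose from 13.0 and 16.0 CPM to 27.4 and 24.5 CPM, a log2 change of 0.88 (SE 0.20, edgeR adjusted p = 7.29e-04). It was 0.56 without FL001 and 1.06 without FL002, and did not pass with gates set at 1500 UMIs (adjusted p = 0.0531).

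Among 17 genes of the NuRD and corepressor complexes through which Ikaros acts, 4 rose, 4 fell and 9 did not pass between the progenitor and commitment gates, where 19.6% of all genes rose and 18.9% fell. Their median log2 change was 0.14, against -0.01 over all genes tested. Ctbp2, a corepressor, fell by 1.04 (SE 0.19, edgeR adjusted p = 7.60e-05), from 30.8 to 11.5 CPM and from 33.4 to 19.8 CPM. The NuRD subunit gene Mta3 rose by 0.83 (SE 0.13, edgeR adjusted p = 4.78e-06), and Mbd2, a reader of methylated DNA, rose by 0.60 (SE 0.18, edgeR adjusted p = 0.0100). The core remodeller Chd4 differed by 0.06 (95% interval -0.12 to 0.25). At the step from the progenitor to the Cd3g-low gate 3 of the 17 were called, all higher, where 6.75% of all genes rose and 5.44% fell. From the Cd3g-low to the Cd3g gate 1 fell (3.83% of all genes), as did 1 from the Il2ra to the commitment gate (4.52%). Between the Il2ra and Cd3g gates none was called, beside 0.17% of all genes.

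Of 12 genes that Ikaros or Satb1 is known to act on in early lymphoid cells, 9 were high enough to be tested. Between the progenitor and commitment gates 8 rose and 1 fell, where 19.6% of all genes rose and 18.9% fell, and their median log2 change was 2.81 against -0.01 over all genes tested. Rag1, a recombinase gene, rose by 4.62 (SE 0.27, edgeR adjusted p = 1.54e-14), from 2.86 to 52.6 CPM and from 2.51 to 74.3 CPM. Igll1, a surrogate light chain gene, rose by 3.95 (SE 0.49, edgeR adjusted p = 1.06e-07), to 10.4 and 14.4 CPM. The cytokine receptor gene Flt3 fell by 4.21 (SE 0.28, edgeR adjusted p = 2.68e-13), from 60.0 to 2.52 CPM and from 57.1 to 3.8 CPM. The Notch targets Hes1, Dtx1 and Nrarp rose by 2.40, 2.81 and 2.62. Rag1, Rag2, Il7r, Flt3, Hes1, Dtx1 and Nrarp are also among the genes that the study used to infer its T cell trajectory. The study describes that inference for a published dataset of mouse thymocytes, not for these libraries. Changes in such stage genes can follow from how the gates were drawn. Whether Ikaros or Satb1 had a part in them was not tested. Dntt, Cd8a and Cd4 were too low to be tested: Dntt and Cd8a had 2 UMIs each, all in the commitment gate of FL001, and Cd4 was at most 3.02 CPM in any sum.

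The genes with the most similar pattern were ranked by Pearson's r of log2(CPM + 10) over the 10 sums, among 3692 genes with at least 50 CPM in any sum. The sums share 2 libraries and 5 gates, so r is a description. For Ikzf1 these were Lztfl1 (r = 0.948), Ighm, Hif1a, Gtf2i and Rnf4. For Ikzf2 they were Btg1 (r = 0.911), Tubb2b, Taf15, Gal and Rag1. For Satb1 they were Gimap5 (r = 0.953), Ppt1, Tnks2, Ccr7 and Mier1. Among themselves the genes were less alike, with r of 0.604 for Ikzf1 and Ikzf2, 0.538 for Ikzf2 and Satb1 and 0.266 for Ikzf1 and Satb1.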

How the data were processed

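Droplet single-cell RNA-seq libraries were prepared with 10X Chromium from 1 culture condition. The authors deposited raw UMI counts per gene and barcode, unfiltered (737280 barcodes per library). They computed these with CellRanger (version not given in the sources used here), and the genome build was mm9 per the submitters' processing notes. Of the 28692 gene identifiers, 28339 are in GENCODE M21, which was used for names and coding sequence only.

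Cells were kept by the minima stated in the report. Scrublet (in scanpy 1.11.5) marked 0.391% and 0.0244% of cells, too few to be relied on, so doublets were left in; an alternative removed the 5% highest scores (89 and 205 cells). UMI counts were summed per library and gate and tested with edgeR 4.0.16 (TMM, filterByExpr, quasi-likelihood, library as block, threshold 0.05), and with DESeq2 as an alternative. With library as a block, the p-values set differences between gates against how far such differences varied between the 2 libraries, counting noise included. That spread was estimated over all 5 gates and drawn towards the trend over all genes tested. The p-values cover nothing beyond these 2 libraries. Shares and ratios carry exact 95% intervals for counting error.

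On simulated counts for the commitment against progenitor comparison, 6% of genes changed 1.5-fold, 54.5% of those changed 2-fold and 94% of those changed 4-fold were called. Only 200 genes were changed in each simulation, at a dispersion set to 0.02, while 4068 genes were called in the data. With fewer changed genes the adjusted threshold is stricter, so these shares do not give the rate of calls in the data. The genes, gates and gene lists were chosen with earlier results of these data known. Named were the 4 genes, their relatives Ikzf4 and Ikzf5, the 3 largest called changes in each list, the 5 most similar genes per gene, and Chd4, Hes1, Dtx1 and Nrarp, which were added after their values were seen. Another item is not reported here. Leaving out barcodes found in both libraries was also an alternative chosen after seeing the data.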

Additional observations from a re-analysis of the deposited data

How the results depend on the processing

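Ikzf2 and Satb1 stayed called between the commitment and progenitor gates in all 9 alternative fits, with log2 changes that ranged with 1 library left out from 0.65 to 0.78 for Ikzf2 and from 0.88 to 0.94 for Satb1. These ranges and those below with 1 library left out have no test, and counts of genes called have none, since 1 library leaves no residual degrees of freedom. Ikzf1 then ran from -0.11 to 0.16. Ikzf1 in that comparison was -0.018 without other lineages and -0.13 with gates set at 1500 UMIs. Other differences reversed too, none of them called in the alternative concerned. Ikzf2 between the Cd3g and Cd3g-low gates was -0.0053 with size factors of DESeq2, -0.019 with no filter and -0.071 with at least 3000 UMIs. It was -0.00019 without barcodes found in both libraries, an alternative chosen after seeing the data. Ikzf2 between the Cd3g-low and progenitor gates was -0.16 without other lineages and -0.27 with gates set at 1500 UMIs. With gates set at 1500 UMIs, Ikzf1 and Ikzf2 between the Il2ra and Cd3g gates were 0.18 and 0.11. In the same setting Satb1 between the commitment and Il2ra gates was -0.028. Only that Satb1 difference had been called in the main fit (0.34, edgeR adjusted p = 0.0417). The cause was not tested.

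Genes called numbered 1291 (Cd3g-low against progenitor), 865 (Cd3g against Cd3g-low), 18 (Il2ra against Cd3g), 1060 (commitment against Il2ra) and 4068 (commitment against progenitor). In the same order DESeq2 called 511, 375, 5, 360 and 2402, and edgeR with no replicate block 411, 276, 2, 375 and 2822. With gates set at 1500 UMIs the counts were 2158 for Cd3g against Cd3g-low and 28 for Il2ra against Cd3g, and with no filter the latter was 47. The replicate numbers in the labels only name the libraries. The block was each library set against itself over its 5 gates, and without it the Satb1 calls at single steps were lost while the Ikzf2 calls stayed.

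At 1500 UMIs the commitment over progenitor ratio of the share of cells was 0.996 for Ikzf1 (0.927 at full depth), 1.46 for Ikzf2 (1.18) and 1.99 for Satb1 (1.55). The Satb1 level ratio was 2.01 as a mean over cells (1.87 from sums), and the Ikzf2 share of the family differed by 7.34 points averaged over cells (11.8 from sums). With 1 library left out, level ratios ran from 0.93 to 1.10 (Ikzf1), 1.59 to 1.74 (Ikzf2) and 1.86 to 1.88 (Satb1), and the mix from 8.95 to 14.7 points. At this depth Ikzf3 was too low to be tested.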
